A study of Mus musculus with 60 samples.

Results

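The genes described here encode 10 enzymes that make, recycle and use glutathione, measured in 3 regions of the brain of mice with and without the enzyme paraoxonase 2 (PON2). They were taken by symbol: Gclc, Gclm, Gss, Gsr, Gpx1, Gpx4, Gstm1, Gstm5, Gsta4 and Gstp1, each of which had 1 row among the 20423 genes of the count table. RNA came from cortex, striatum and cerebellum of male and female mice on a C57BL/6J background, killed at 3 to 4 months of age after tests of behaviour. The wild-type mice and the PON2-deficient mice were littermates from crosses of heterozygous parents, and the labels name no other allele and no treatment. Region, sex and genotype gave 12 groups of 5 libraries, 60 in all, so that each region held 10 wild-type and 10 PON2-deficient libraries. The labels do not say whether libraries with 1 number came from 1 mouse, and regions may share mice, so p-values between regions measure the spread between libraries. Tissue was whole and pulverised, so fewer cells of a type and less RNA per cell cannot be told apart.

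Glutathione is a tripeptide of glutamate, cysteine and glycine, and in the brain astrocytes hold much of it and release precursors that neurons use for their own synthesis. Glutamate-cysteine ligase, built of the catalytic subunit Gclc and the modifier subunit Gclm, carries out the rate-limiting step, and Gss, glutathione synthetase, adds the glycine. Gpx1 and Gpx4 are selenium-containing peroxidases that spend glutathione on hydrogen peroxide and on lipid peroxides, and Gsr, glutathione reductase, returns the oxidised form with NADPH. The glutathione transferases Gstm1, Gstm5, Gsta4 and Gstp1 join glutathione to reactive compounds, and Gsta4 acts on the lipid aldehyde 4-hydroxynonenal. Several of these genes are known targets of the transcription factor NRF2, which binds the antioxidant response element.

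The 60 libraries held between 26091911 and 28125224 counts each. Levels are given in CPM, the share of a library's counts expressed per 1000000, scaled between libraries by the trimmed mean of M values, and do not correct for transcript length. Pon2 itself followed the labels in all 60 libraries. It ran in cortex from 50.2 to 58.9 CPM in the wild type and from 2.34 to 5.62 CPM under PON2 deficiency. The ranges were 44.7 to 56.8 and 2.54 to 6.91 CPM in striatum, and 39.2 to 51.4 and 0.457 to 1.26 CPM in cerebellum. Region labels also matched marker genes. The summed level of 8 striatal projection neuron markers was at least 3721 CPM in every striatal library and at most 1284 CPM in cortex. The sum of 7 granule neuron markers was at least 4695 CPM in every cerebellar library and at most 135 CPM elsewhere. One library stood apart, the fifth PON2-deficient male striatum. The precision weights deposited for it averaged 0.0527 of the regional median, and short transcripts read high in it. Striatal values of the members that it moves are given with and without it.

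The 3 members with the largest difference between cerebellum and cortex in either direction, Gstm5, Gss and Gclm, are shown by the bases before their start sites, because the regional results turn on them. RefSeq promoters were on hand for 7 of the 10 members. The letters are from RefSeq (GRCm38.p6), 5′ to 3′ on the strand of the gene, and stop where the gene begins in the GENCODE annotation. Capitals mark a match to the core of the antioxidant response element, TGACNNNGC, searched on both strands and printed as it stands on the strand shown.
Gclm (chr3:122245307-122245556, plus strand): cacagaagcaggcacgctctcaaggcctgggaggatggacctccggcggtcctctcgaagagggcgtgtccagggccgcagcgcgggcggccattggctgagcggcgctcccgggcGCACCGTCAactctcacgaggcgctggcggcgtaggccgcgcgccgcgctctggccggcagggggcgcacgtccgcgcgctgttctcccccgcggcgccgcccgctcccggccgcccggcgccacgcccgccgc
Gstm5 (chr3:107895604-107895820, plus strand): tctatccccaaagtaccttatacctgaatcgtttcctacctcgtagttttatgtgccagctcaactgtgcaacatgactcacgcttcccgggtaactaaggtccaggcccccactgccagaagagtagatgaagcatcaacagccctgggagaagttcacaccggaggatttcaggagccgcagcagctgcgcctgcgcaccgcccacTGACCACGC
Gss (chr2:155592811-155593060, minus strand): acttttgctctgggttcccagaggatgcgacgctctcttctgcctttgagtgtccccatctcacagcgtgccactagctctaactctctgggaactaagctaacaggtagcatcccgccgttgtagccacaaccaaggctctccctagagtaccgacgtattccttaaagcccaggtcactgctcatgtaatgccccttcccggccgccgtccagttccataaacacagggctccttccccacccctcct
The match in Gclm reads TGACGGTGC on the minus strand, 134 to 126 bases before the RefSeq start. That in Gstm5 reads TGACCACGC on the plus strand, 42 to 34 bases before it. The Gclm sequence holds 78.4% G and C, against 56% in Gss and 55.3% in Gstm5. Of the 32851 RefSeq promoters in the table, 10.2% hold such a match in their 250 bases before the start, and none was found in the windows of Gss, Gpx1, Gpx4, Gstm1 and Gstp1. Gclm and Gstm5, the members with a match among these 7, differed between cerebellum and cortex in opposite directions.

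The members sit at scattered places of the mouse genome (GRCm38). Gclc (chr9:77754535-77794485) and Gsta4 (chr9:78182774-78209349) are close together on the plus strand of chromosome 9, which also carries Gpx1 (chr9:108338903-108340343). Gstm1 (chr3:108012255-108017973, minus strand) and Gstm5 (chr3:107895821-107898686, plus strand) belong to the mu-class cluster on chromosome 3, the chromosome of Gclm (chr3:122245557-122270732). The others are Gss (chr2:155563181-155592810), Gsr (chr8:33652523-33698163), Gpx4 (chr10:80047166-80056439) and Gstp1 (chr19:4035407-4037985). Counts of some members could be split with near-identical genes. Of the 31-base stretches in the transcripts of Gpx4, 38.9% also occur in other genes, nearly all of these in the pseudogene Gpx4-ps2. The share was 38.5% for Gstp1, with its neighbour Gstp2, and 28.8% for Gstm1, with Gstm2-ps1 and Gstm3. It was 12.8% for Gss, 11.1% for Gstm5 and 6.82% for Gclm, and 0 for Gclc, Gsr, Gpx1 and Gsta4. Values of Gpx4, Gstp1 and Gstm1 may therefore be less certain than those of the others, which was not measured.

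Compared per kilobase of the longest annotated transcript, Gpx4 had the highest mean of the 10 in every region, and in striatum it overlapped Gstp1 within their SD. Per kilobase of all exons joined, Gstm1 (135 ± 15.2) and Gpx4 (129 ± 11.4) overlapped within their SD in cerebellum. Gpx4 averaged 254 ± 15.4 CPM per kb in cortex, 257 ± 82.9 in striatum and 223 ± 19.8 in cerebellum (SD, n = 20 libraries each). Gstp1 was next in cortex (197 ± 11.8 CPM per kb) and striatum (247 ± 58.2). Without the library that stood apart the striatal means were 239 ± 16.6 for Gpx4, below that of cortex, and 234 ± 17.6 for Gstp1 (SD, n = 19). Gstm1 came after it in both regions with 140 ± 16.1 and 132 ± 16.8. In cerebellum Gstm1 (154 ± 17.4) and Gstp1 (145 ± 9.81) overlapped within their SD. The transcripts for synthesis were at the other end of the scale in all regions. Gclc had 13.6 ± 0.604 CPM per kb in cortex, Gclm 8.96 ± 0.687 and Gss 4.19 ± 0.414. The recycling enzyme Gsr had 7.89 ± 0.765. Gss was the lowest of the 10 in each region on this scale. Its longest transcript is not its longest coding one, and per kilobase of the latter it stood at 13.4 ± 0.970 in cerebellum, above Gsr at 10.9 ± 0.860.

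Deficiency of PON2 is the comparison the study was built on, and it moved none of the 10 transcripts past the threshold of an adjusted p of 0.05 in cortex, striatum or cerebellum. All 10 were tested in each region with the quasi-likelihood F test of edgeR, adjusted over all genes by Benjamini-Hochberg. The share of all genes that passed was 0.0316% in cortex, 0.0105% in striatum and 0.0321% in cerebellum, so a count of 0 among 10 members is near the background. At an unadjusted p under 0.05 there were 2 members in cortex, 0 in striatum and 1 in cerebellum, against 11.4%, 4.94% and 11.1% of all genes. Without the library that stood apart 1 member was under it in striatum, with no share of all genes counted. After adjustment 0 members passed in that fit, and 3 of the 19116 genes tested did. DESeq2 called 0 members in each region. Its counts over all genes, for these and the tests by sex, are given in the closing paragraph. In all 30 pairs of gene and region the range of the PON2-deficient libraries overlapped that of the wild type. The share of all genes with such an overlap was not counted. The median log2 change of the 10 was -0.06 in cortex, -0.0011 in striatum and -0.02 in cerebellum, and that of all genes tested was -0.00056, 0.0098 and 0.0009.

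**Figure D1:**
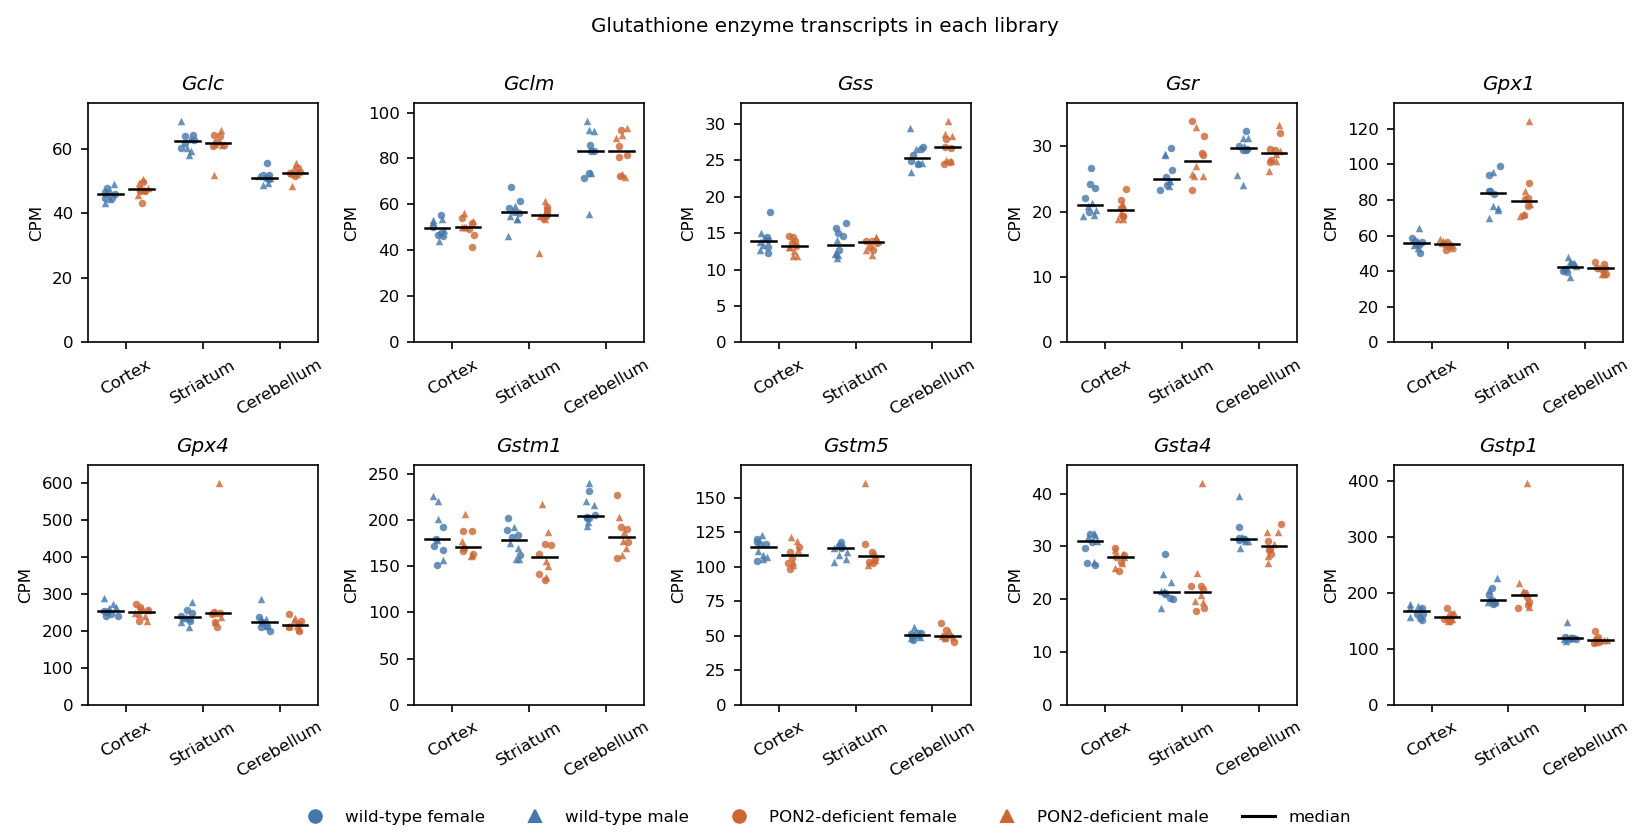
Level of each gene in CPM (y axis, from 0) in every library, by region (x axis), genotype (colour) and sex (symbol), with the median of each region and genotype as a bar. Wild-type and PON2-deficient libraries overlap in all panels, and 1 male PON2-deficient striatum stands far above the others for Gpx4 (599.8 CPM) and Gstp1 (396 CPM).

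Gclc, the catalytic subunit of the ligase, had the smallest SE of the 10 in each region. In cortex it ran from 43.0 to 49.0 CPM in wild-type libraries with a median of 46.0, and from 43.1 to 50.7 CPM with a median of 47.4 in PON2-deficient ones. Its log2 change was 0.05 (SE 0.0313, 95% interval -0.02 to 0.11, edgeR adjusted p = 0.596), with 8 of 10 PON2-deficient libraries above the wild-type median. The corresponding change in cerebellum was 0.04 (SE 0.0287), with medians of 51.0 and 52.5 CPM and 9 of 10 libraries above. In striatum, where medians were 62.3 and 61.6 CPM, it was -0.02 (SE 0.0452), and 0.0089 (SE 0.034, adjusted p = 0.961) without the library that stood apart. Across the 3 regions the 95% intervals of Gclc lay between 0.926-fold and 1.081-fold.

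Gclm, which raises the affinity of the ligase for its substrate, had medians of 49.6 and 50.1 CPM in wild-type and PON2-deficient cortex, 56.6 and 55.3 CPM in striatum, and 83.3 and 83.5 CPM in cerebellum. Its log2 changes were 0.01 (SE 0.0491), -0.06 (SE 0.0685) and 0.04 (SE 0.0836). The striatal change of Gclm was -0.0084 (SE 0.0472, edgeR adjusted p = 0.976) without the library that stood apart. The ratio of Gclm to Gclc, which describes the makeup of the ligase transcripts, was measured as well. On a log2 scale of CPM it averaged 0.12 ± 0.10 in wild-type and 0.08 ± 0.13 in PON2-deficient cortex, and 0.64 ± 0.24 and 0.65 ± 0.15 in cerebellum (SD, n = 10 each). In striatum it was -0.13 ± 0.16 and -0.18 ± 0.11 (-0.15 ± 0.07 without the library that stood apart, n = 9), and in every region the genotype means differed by less than their SD.

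Gss, the second enzyme of synthesis, changed by -0.09 on the log2 scale in cortex (SE 0.0566, adjusted p = 0.556), by -0.01 in striatum (SE 0.0584, and -0.02 without the library that stood apart) and by 0.06 in cerebellum (SE 0.0475). Its cortical libraries ran from 12.3 to 17.8 CPM in the wild type and from 11.8 to 14.6 CPM in PON2-deficient mice. Gsr had log2 changes of -0.09 in cortex (SE 0.0507, edgeR adjusted p = 0.507), 0.12 in striatum (SE 0.071, adjusted p = 0.995) and -0.0045 in cerebellum (SE 0.0541). The striatal value of Gsr had the smallest unadjusted p of the 10 in that region, 0.0947. Wild-type striatum ran from 23.4 to 29.7 CPM with a median of 25.1, and PON2-deficient striatum from 23.4 to 33.9 CPM with a median of 27.8. Although 9 of 10 PON2-deficient libraries lay above the wild-type median, the ranges began at the same level. Without the library that stood apart the log2 change was 0.09 (adjusted p = 0.71).

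Neither peroxidase passed in any region. Gpx1, which reduces hydrogen peroxide, changed by -0.02 (SE 0.0348) in cortex and -0.04 (SE 0.0418) in cerebellum on the log2 scale, with cortical medians of 55.8 CPM (wild type) and 55.1 CPM (PON2 deficiency). Gpx4, which protects membranes against lipid peroxidation, changed by -0.05 in both of these regions (SE 0.0328 and 0.0491). In striatum Gpx1 changed by -0.01 (SE 0.0872, edgeR adjusted p = 0.996), and by -0.10 (adjusted p = 0.667) without the library that stood apart. The fitted change of Gpx4 there was 0.18 with an SE of 0.137, the widest of the 30, and the interval ran from -0.10 to 0.47. The 10 wild-type striata ran from 209.7 to 277 CPM and 9 of the PON2-deficient striata from 209.6 to 249.8 CPM, while the remaining one stood at 599.8 CPM. Without it the log2 change was -0.01 (adjusted p = 0.984).

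The transferases held the smallest p-values of the set. Gstm1, a mu-class enzyme that is abundant in astrocytes, was lower on average in PON2-deficient cerebellum. Wild-type females had 202, 203, 232, 204 and 206 CPM, and PON2-deficient females 177, 190.5, 159.6, 227 and 193 CPM. Wild-type males had 221, 194, 217, 241 and 198 CPM, and PON2-deficient males 163, 203, 177, 188 and 170 CPM. Of the 10 PON2-deficient libraries 9 lay below the wild-type median of 205 CPM, and the ranges overlapped because of 1 female at 227 CPM and 1 male at 203 CPM. The means were 212 ± 15.4 and 185 ± 20.3 CPM (SD, n = 10 each). The log2 change was -0.20 (SE 0.0567, 95% interval -0.31 to -0.08), with an unadjusted p of 0.00242 and an edgeR adjusted p of 0.172, which misses the threshold. Over 27 other fits of this value it ran from -0.23 to -0.17, and the adjusted p from 0.0599 with DESeq2 to 0.293. The summed level of 10 astrocyte markers in the same libraries had a median of 4507 CPM in the wild type (4263 to 4767) and 4279 CPM in PON2-deficient mice (4035 to 4443). None of the 10 markers passed the test and 7 were lower in PON2-deficient mice, with a median log2 change of -0.06. Markers of several other cell types and tissues were also lower in the same libraries, and none of these passed either. All 10 choroid plexus markers were lower (median log2 change -0.34), with summed levels of 913 to 3499 CPM in the wild type and 146 to 4109 CPM in PON2-deficient cerebellum. All 6 ependymal markers were lower (-0.38), at 21.1 to 32.6 and 15.9 to 35.6 CPM. All 6 markers of meningeal fibroblasts were lower (-0.26), at 194 to 252 and 130 to 259 CPM. Of 8 microglial markers 7 were lower (-0.058), as were 6 of 7 endothelial and mural markers (-0.084) and all 5 red blood cell markers (-0.095). Oligodendrocyte markers had 4 of 10 lower (0.016) and oligodendrocyte precursor markers 2 of 4 (0.072). No marker of these lists was at 0 in all libraries. Choroid plexus markers were in the model of 1 of the 27 other fits, and the range of Gstm1 given above includes that fit. The part of the other lists was not tested.

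The other regions gave Gstm1 values in the same direction that did not pass. The cortical medians were 179 (wild type) and 171 CPM (PON2 deficiency), with a log2 change of -0.07 (SE 0.063, edgeR adjusted p = 0.711). In striatum they were 179 and 160.0 CPM, with a change of -0.11 (SE 0.0765) that came to -0.17 (adjusted p = 0.499) without the library that stood apart. Whether the genotype change of Gstm1 differed between regions was covered by the test of genotype by region, which called 0 of the 10 members against 0.0147% of all genes, and 1 member at an unadjusted p under 0.05, against 5.61%. The smallest p in that test belonged to Gsr (0.0439, edgeR adjusted p = 0.876), and was 0.0958 (edgeR adjusted p = 0.841) without the library that stood apart.

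Gsta4 and Gstp1 gave the cortical values with the smallest p. Wild-type females had 30.9, 29.8, 32.3, 26.8 and 26.4 CPM of Gsta4 in cortex and PON2-deficient females 25.3, 27.0, 27.97, 29.7 and 28.3 CPM. In males the values were 32.1, 32.5, 31.7, 27.1 and 31.1 CPM in the wild type and 29.2, 26.8, 25.9, 28.5 and 27.99 CPM with PON2 deficiency. All 10 PON2-deficient libraries were below the wild-type median of 30.98 CPM, but 3 wild-type libraries lay among them. The log2 change of Gsta4 was -0.12 (SE 0.0453), with an edgeR quasi-likelihood p of 0.0153 and an adjusted p of 0.304. Gstp1, the pi-class enzyme, changed by -0.08 in cortex (SE 0.0327), with an edgeR quasi-likelihood p of 0.0214 and an adjusted p of 0.339, from a median of 167 to 156 CPM, with 9 of 10 libraries below. In the slope of log2 CPM on log2 transcript length, a lower value means that short transcripts read high. The slope ran from -0.0412 to -0.00121 in wild-type male cortex and from -0.0083 to 0.0178 in PON2-deficient male cortex. Female cortex did not show this order, with 0.00179 to 0.0286 in the wild type and -0.000548 to 0.0135 under PON2 deficiency. In an alternative fit with that slope in the model the changes were -0.07 for Gsta4 (adjusted p = 0.631) and -0.03 for Gstp1 (adjusted p = 0.784). In cerebellum the changes were -0.09 (SE 0.0514) and -0.06 (SE 0.0393), and in striatum 0.05 (SE 0.121) and 0.12 (SE 0.107). Without the library that stood apart the striatal values were -0.07 and -0.01.

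Gstm5, a mu-class enzyme known in brain and testis, showed log2 changes of -0.06 in cortex (SE 0.0401), 0.01 in striatum (SE 0.0655) and 0.00033 in cerebellum (SE 0.0428). The striatal value was -0.06 (SE 0.0328, edgeR adjusted p = 0.631) without the library that stood apart. Its cerebellar medians were 50.7 CPM (wild type) and 49.6 CPM (PON2 deficiency).

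**Figure D2:**
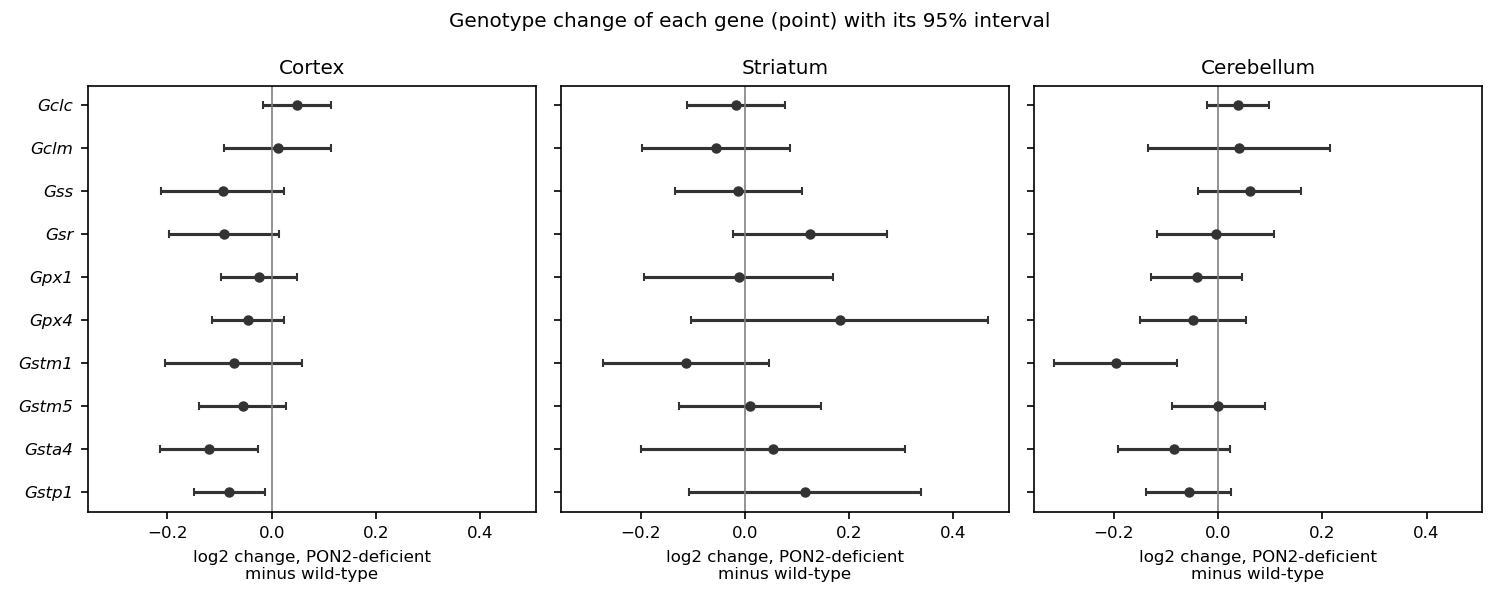
Log2 change of each gene in PON2-deficient over wild-type mice (x axis) in cortex, striatum and cerebellum, with its 95% interval from edgeR. Intervals in striatum are wider than elsewhere for Gpx4 (SE 0.137) and Gsta4 (SE 0.121), and Gstm1 in cerebellum lies farthest from 0 at -0.20.

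Split by sex, no member passed the test in either sex or in the test of genotype by sex, in any region. The share of all genes that passed was 0.00527% in female cortex and striatum, 0.00534% in female cerebellum, 0.148% in male cortex, 0.00527% in male striatum and 0.016% in male cerebellum, and 0% by sex in each region. At an unadjusted p under 0.05 there were 1, 0 and 0 members in females of cortex, striatum and cerebellum (6.6%, 4.08% and 5.16% of all genes), 3, 0 and 2 in males (14%, 5.96% and 10.6%), and 1, 1 and 0 in the test of genotype by sex (9.56%, 4.31% and 4.73%). Without the library that stood apart there were 3 in female striatum, 0 in male striatum and 1 by sex in striatum. No share of all genes was counted for these. After adjustment 0 members passed, and of the 19116 genes tested 2, 1 and 0 did in the same order. DESeq2 called 0 members in each of these comparisons. With all libraries in the fits, the strongest of these values was that of Gpx4 in male cortex. Wild-type males ran from 254.0 to 288 CPM and PON2-deficient males from 227 to 254.6 CPM, so the ranges met by less than 1 CPM. The log2 change was -0.15 (SE 0.0464), with an edgeR quasi-likelihood p of 0.00509 and an adjusted p of 0.154. In female cortex the ranges were 239 to 252 CPM and 225 to 271 CPM, and the difference between male and female changes was -0.20 (SE 0.0657, edgeR adjusted p = 0.348). In male striatum Gpx4 also had the smallest p, with a change of 0.39 (SE 0.194, edgeR adjusted p = 0.792), which was 0.02 (adjusted p = 0.99) without the library that stood apart. Gstm1 had the smallest p in female striatum (-0.22, SE 0.108, adjusted p = 1), female cerebellum (-0.15, SE 0.0802, adjusted p = 0.96) and male cerebellum (-0.25, SE 0.0802, adjusted p = 0.263). In female cortex it was Gsr (-0.16, SE 0.0716, edgeR adjusted p = 0.732).

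By sex the genes closest to the threshold were Gss in striatum (0.26, SE 0.117, edgeR adjusted p = 0.88, and 0.24 without the library that stood apart) and Gpx1 in cerebellum (-0.17, SE 0.0837, edgeR adjusted p = 0.967). Between males and females as such, 0 of 10 members passed in each region, while of all genes 0.0896% (cortex), 0.105% (striatum) and 0.118% (cerebellum) did. At an unadjusted p under 0.05 the members numbered 1, 1 and 0, against 10.5%, 7.82% and 7.24% of genes, and DESeq2 called 0. Without the library that stood apart they numbered 2 in striatum, with no share of all genes counted. After adjustment 0 members passed in that fit, and 25 of the 19116 genes tested did. Gsr had the smallest p in cortex, lower in males by a log2 difference of -0.13 (SE 0.0507, edgeR adjusted p = 0.373). The corresponding genes were Gss in striatum (-0.13, SE 0.0584, edgeR adjusted p = 0.608, and -0.14 without the library that stood apart) and Gpx4 in cerebellum (0.07, SE 0.0491, edgeR adjusted p = 0.817).

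The regions differed far more than the genotypes. In a fit to all 60 libraries, averaged over sex and genotype, 9 of 10 members passed between cerebellum and cortex (5 higher in cerebellum, 4 lower), where 79.6% of all genes passed (40.1% higher, 39.5% lower). Between cerebellum and striatum all 10 passed (5 higher, 5 lower) against 79.8% of genes (39.7% higher, 40.2% lower), and between striatum and cortex 6 passed (5 higher in striatum, 1 lower) against 57% (28.8% higher, 28.2% lower). The counts are thus near the background, and the account below is of which member was high where. Ranges of 20 and 20 libraries did not overlap for 4 members between cerebellum and cortex, for 4 between cerebellum and striatum and for 2 between striatum and cortex, against 31.3%, 26.3% and 7.73% of genes. The 3 comparisons share libraries.

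**Figure D3:**
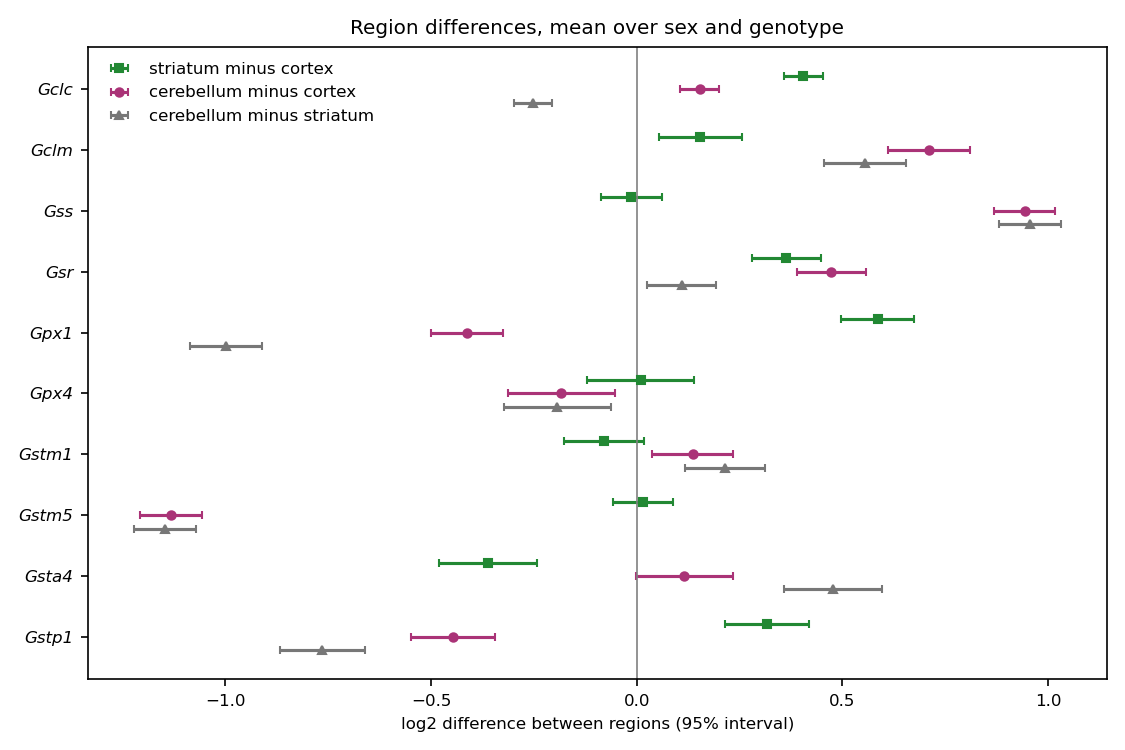
Log2 difference of each gene between regions (x axis) with its 95% interval from edgeR, over 20 libraries a region. Gss and Gclm are higher in cerebellum than in cortex (0.94 and 0.71), Gstm5, Gstp1 and Gpx1 are lower (-1.13, -0.45 and -0.41), and Gpx4 and Gstm1 lie closer to 0 (-0.18 and 0.14).

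All 3 synthesis genes were higher in cerebellum than in cortex. Gss ran from 11.8 to 17.8 CPM in cortex (median 13.5), from 11.6 to 16.4 CPM in striatum (median 13.7) and from 23.5 to 30.5 CPM in cerebellum (median 26.1). No cerebellar library overlapped a library of the other regions, and cortex and striatum did not differ beyond their spread (log2 difference -0.01, SE 0.0375, edgeR adjusted p = 0.795). Cerebellum was 1.92-fold above cortex (log2 0.94, SE 0.0371, adjusted p = 3.43e-30) and 1.94-fold above striatum. Gclm had medians of 50.1, 56.1 and 83.3 CPM in cortex, striatum and cerebellum. Its cerebellar range of 55.7 to 96.5 CPM touched the cortical range of 41.3 to 56.3 CPM and the striatal range of 38.8 to 67.7 CPM through 1 library, the fourth wild-type male cerebellum. Cerebellum was 1.64-fold above cortex (log2 0.71, SE 0.05, edgeR adjusted p = 5.78e-19), and striatum 1.11-fold above cortex (log2 0.15, SE 0.0501, edgeR adjusted p = 0.007).

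The catalytic subunit did not follow the modifier. Gclc was highest in striatum, where it ran from 51.9 to 68.7 CPM, above all cortical libraries (43.0 to 50.7 CPM). Its log2 difference of striatum from cortex was 0.41 (SE 0.0234, edgeR adjusted p = 7.43e-22), with a smaller one of 0.15 (SE 0.0234) between cerebellum and cortex. Cerebellum was lower than striatum, with a log2 difference of -0.25 (SE 0.0233). The mean ratio of Gclm to Gclc was therefore above 1 in cerebellum (log2 0.64 in the wild type), near 1 in cortex (0.12) and below 1 in striatum (-0.13), given as a description of CPM values that do not correct for length.

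Gsr, the recycling enzyme, was lowest in cortex at a mean of 21.1 ± 2.04 CPM, with 27.1 ± 3.15 CPM in striatum and 29.2 ± 2.30 CPM in cerebellum (SD, n = 20 each). The striatum stood 0.36 (SE 0.0421) and the cerebellum 0.47 (SE 0.042) above cortex on the log2 scale, and both passed. The difference of 0.11 between cerebellum and striatum passed with an edgeR adjusted p of 0.0153, but not without the replicates numbered 2 (adjusted p = 0.168) or 3 (adjusted p = 0.0906).

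Gpx1 had the opposite order to Gss and Gclm in cerebellum. Its libraries ran from 50.1 to 64.0 CPM in cortex (median 55.5), from 69.8 to 124.6 CPM in striatum (median 80.7) and from 37.0 to 47.9 CPM in cerebellum (median 41.5). None of these 3 ranges overlapped another. Striatum was 1.501-fold above cortex (log2 0.59, SE 0.0439, edgeR adjusted p = 2.67e-17), and cerebellum was at 0.5005-fold of striatum (log2 -0.9986, SE 0.0442, adjusted p = 8.91e-28). The medians of Gpx4 were 253, 239 and 219.7 CPM in cortex, striatum and cerebellum, and cerebellum was at 0.881-fold of cortex (log2 -0.18, SE 0.0648, edgeR adjusted p = 0.00911). Between striatum and cortex the fitted difference was 0.01 (SE 0.0648, adjusted p = 0.912). Leaving out the library that stood apart turned it to -0.08 (adjusted p = 0.026). The difference of Gpx4 between cerebellum and striatum, -0.19 (SE 0.0648, adjusted p = 0.00607), was -0.10 (adjusted p = 0.00518) without that library and -0.07 (adjusted p = 0.0682) without all libraries numbered 5.

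Gstm5 had the largest regional difference of the set. It ran from 98.6 to 123 CPM in cortex and from 101 to 161 CPM in striatum, but only from 45.3 to 59.3 CPM in cerebellum. Cerebellum was at 0.456-fold of cortex (log2 -1.13, SE 0.0374, edgeR adjusted p = 1.07e-33) and 0.452-fold of striatum (log2 -1.15, SE 0.0375). Cortex and striatum differed by 0.02 (SE 0.0368, adjusted p = 0.75). Gstp1 was likewise lowest in cerebellum, from 109.7 to 147 CPM against 148 to 179.9 CPM in cortex and 173 to 396 CPM in striatum. The ranges of cerebellum and cortex came within 2 CPM of each other through the fourth wild-type male cerebellum and did not overlap. The log2 differences of Gstp1 were -0.45 between cerebellum and cortex (SE 0.0511), -0.76 between cerebellum and striatum (SE 0.0513) and 0.32 between striatum and cortex (SE 0.051), and all passed.

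Gstm1 and Gsta4 were not lowest in cerebellum. Gstm1 was highest in cerebellum, with a mean of 198 ± 22.4 CPM against 180.3 ± 20.7 CPM in cortex and 171 ± 21.6 CPM in striatum (SD, n = 20 each). All 3 ranges overlapped, and the differences were small, 0.14 between cerebellum and cortex (SE 0.0488, edgeR adjusted p = 0.0101) and 0.21 between cerebellum and striatum (SE 0.0488, adjusted p = 8.49e-05). The first of these did not pass without the libraries numbered 4 (0.08, adjusted p = 0.143). Between striatum and cortex the value was -0.08 (SE 0.0488, edgeR adjusted p = 0.165), and -0.10 (adjusted p = 0.0491) without the library that stood apart. Gsta4 was lowest in striatum, where medians were 21.3 CPM against 28.4 CPM in cortex and 31.1 CPM in cerebellum. The log2 difference of striatum from cortex was -0.36 (SE 0.0595, edgeR adjusted p = 6.19e-07), and cerebellum exceeded striatum by 0.48 (SE 0.0594). Cerebellum and cortex differed by 0.12 (SE 0.059, edgeR adjusted p = 0.0669), which passed without the library that stood apart (0.12, adjusted p = 0.00848).

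Summed markers of cell types also differed between regions, beside these results. The 10 choroid plexus markers had a median sum of 266 CPM in cortex, 273 CPM in striatum and 1758 CPM in cerebellum. Sums of 6 meningeal fibroblast markers were 120, 60.5 and 216 CPM, and those of 6 ependymal markers 16.2, 32.6 and 23.7 CPM. The median sum of 10 astrocyte markers was 4236 CPM in cortex, 3429 CPM in striatum and 4400 CPM in cerebellum. That of 10 oligodendrocyte markers was 4528, 8977 and 5091 CPM, and that of 8 microglial markers 366, 453 and 134 CPM. No list had a marker at 0 in all libraries, and the part of cell makeup in the region differences was not tested.

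The library that stood apart, the fifth PON2-deficient male striatum, lay outside the range of the other 19 striata in 8 of the 10 members, as it did in 53.6% of all genes tested. Gpx4 was at 599.8 CPM against 209.6 to 277 CPM in the others, and Gstp1 at 396 CPM against 173 to 226 CPM. It also had the highest Gsta4 (42.1 CPM, others 17.8 to 28.5), Gpx1 (124.6 CPM, others 69.8 to 98.9), Gstm5 (161 CPM, others 101 to 118) and Gstm1 (218 CPM, others 135 to 203). Gclc and Gclm were the lowest in it, at 51.9 CPM (others 58.1 to 68.7) and 38.8 CPM (others 46.2 to 67.7). Gss (14.5 CPM) and Gsr (32.9 CPM) lay within the range of the others, 0.09 and 0.35 above their median on the log2 scale. The 6 high members have longest transcripts of between 821 and 1289 bases, and the 2 low members of 3423 and 5589 bases. Gss and Gsr, which were not low in it, have longest transcripts of 3258 and 2673 bases. The length slope of this library was -0.17, the lowest of the 60. A library with the next lowest slope (-0.08), the fourth wild-type male cerebellum, had the highest cerebellar Gpx4 (286 CPM), Gstp1 (147 CPM), Gsta4 (39.5 CPM), Gpx1 (47.9 CPM) and Gstm1 (241 CPM), and the lowest Gclm (55.7 CPM) and Gsr (24.0 CPM).

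Without the fifth PON2-deficient male striatum 8, 10 and 10 members passed between striatum and cortex, cerebellum and cortex, and cerebellum and striatum. Of the 20417 genes tested in that fit 12278, 16619 and 16523 passed, also more than with all libraries. The log2 differences between striatum and cortex were then 0.42 for Gclc, 0.18 for Gclm, -0.02 for Gss, 0.35 for Gsr and 0.55 for Gpx1. Among the transferases they were -0.02 for Gstm5, -0.42 for Gsta4 and 0.26 for Gstp1. Between cerebellum and striatum they were -0.27 for Gclc, 0.53 for Gclm, 0.96 for Gss, 0.13 for Gsr, -0.96 for Gpx1, 0.24 for Gstm1, -1.11 for Gstm5, 0.54 for Gsta4 and -0.70 for Gstp1. The sign of Gstm5 between striatum and cortex turned, from 0.02 to -0.02, and neither value was called.

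The relation was tested over all libraries. Each library's deviation from its group mean was compared between the length slope and the log2 CPM of each member, with 100000 permutations within groups and adjustment over all 20387 genes tested. Both Pearson's r and Spearman's rho passed an adjusted p of 0.05 for 7 of the 10 members and for 21.7% of all genes. The slope is built from the levels of all genes, the members among them. Gpx4 had r = -0.87 (adjusted permutation p = 0.00444) and rho = -0.52 (adjusted permutation p = 0.0137, 60 libraries). Its r was -0.66 without the 2 libraries farthest from the median slope and -0.58 without the library that stood apart. By region r was 0.04 in cortex, -0.95 in striatum (-0.69 without that library) and -0.70 in cerebellum, so the relation did not hold within cortex. Gstp1 had r = -0.86 (adjusted permutation p = 0.00314) and rho = -0.53 (adjusted permutation p = 0.0108), with r of -0.64 without the 2 farthest libraries. Within cortex, striatum and cerebellum its r was -0.54, -0.92 and -0.65. Gpx1, Gstm1, Gstm5 and Gsta4 also ran against the slope, with r from -0.77 to -0.53; within cortex these were -0.38, -0.65, -0.49 and -0.35, and within cerebellum -0.42, -0.27, -0.38 and -0.54. Gclm was the exception that ran with it (r = 0.63, adjusted permutation p = 0.00891, rho = 0.40, adjusted permutation p = 0.0354), in striatum (0.85) and cerebellum (0.83) but not in cortex (-0.35). Without the 2 farthest libraries r was -0.60 for Gpx1, -0.40 for Gstm1, -0.44 for Gstm5, -0.47 for Gsta4 and 0.40 for Gclm. Gclc, Gss and Gsr did not pass.

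**Figure D4:**
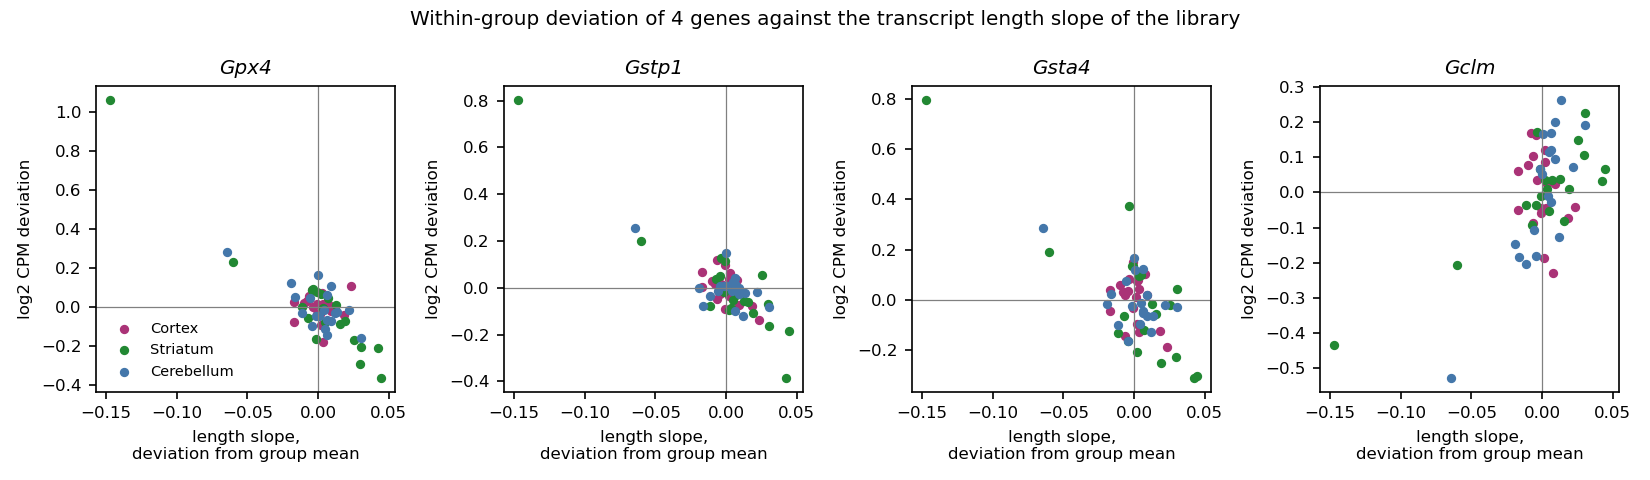
Deviation of log2 CPM from the group mean (y axis) against the deviation of the transcript length slope (x axis) for Gpx4, Gstp1, Gsta4 and Gclm, 1 point a library, coloured by region. The fifth PON2-deficient male striatum is the point far to the left. Gpx4, Gstp1 and Gsta4 fall as the slope rises (r = -0.87, -0.86 and -0.74) and Gclm rises with it (r = 0.63).

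Members were compared with each other in the same way. The pairs named are those for which r and rho both passed after adjustment over the 45 pairs of members. Beside each r stands the share of all pairs of tested genes with an r as high or higher. Gsta4 and Gstp1 were the closest pair, with r = 0.83 (adjusted permutation p = 0.00045, 0.0392% of all pairs) and rho = 0.62 (adjusted permutation p = 0.0018). Their r was 0.64 (0.0376% of all pairs) without the library that stood apart. The raw permutation p of the r of 0.83, 1e-05, is the smallest that these permutations can give, and the r of 0.64 was not tested. The r was 0.70 without the 2 libraries farthest in Gsta4 and 0.76, 0.86 and 0.73 in cortex, striatum and cerebellum. Within striatum it was 0.56 without the library that stood apart. Gpx1 with Gpx4 had r = 0.75 (adjusted permutation p = 0.00304, 0.176% of all pairs) and rho = 0.46 (adjusted permutation p = 0.0159). That relation did not hold within cortex (-0.26) and stood at 0.85 in striatum (0.57 without the library that stood apart) and 0.75 in cerebellum. It stood at 0.52 without the 2 libraries farthest in Gpx1. The others were Gstm1 with Gsta4 (r = 0.59, 1.1% of all pairs), Gpx1 with Gstm5 (0.67, 0.533%) and Gpx4 with Gstm5 (0.74, 0.228%). Without the 2 farthest libraries these were 0.48, 0.46 and 0.47. The first of them was 0.43 in cortex and 0.09 in cerebellum, the second 0.48 and 0.63, and the third -0.22 and 0.73. In striatum they were 0.864, 0.745 and 0.949 in the same order. Without the library that stood apart these fell to 0.799, 0.111 and 0.604.

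**Figure D5:**
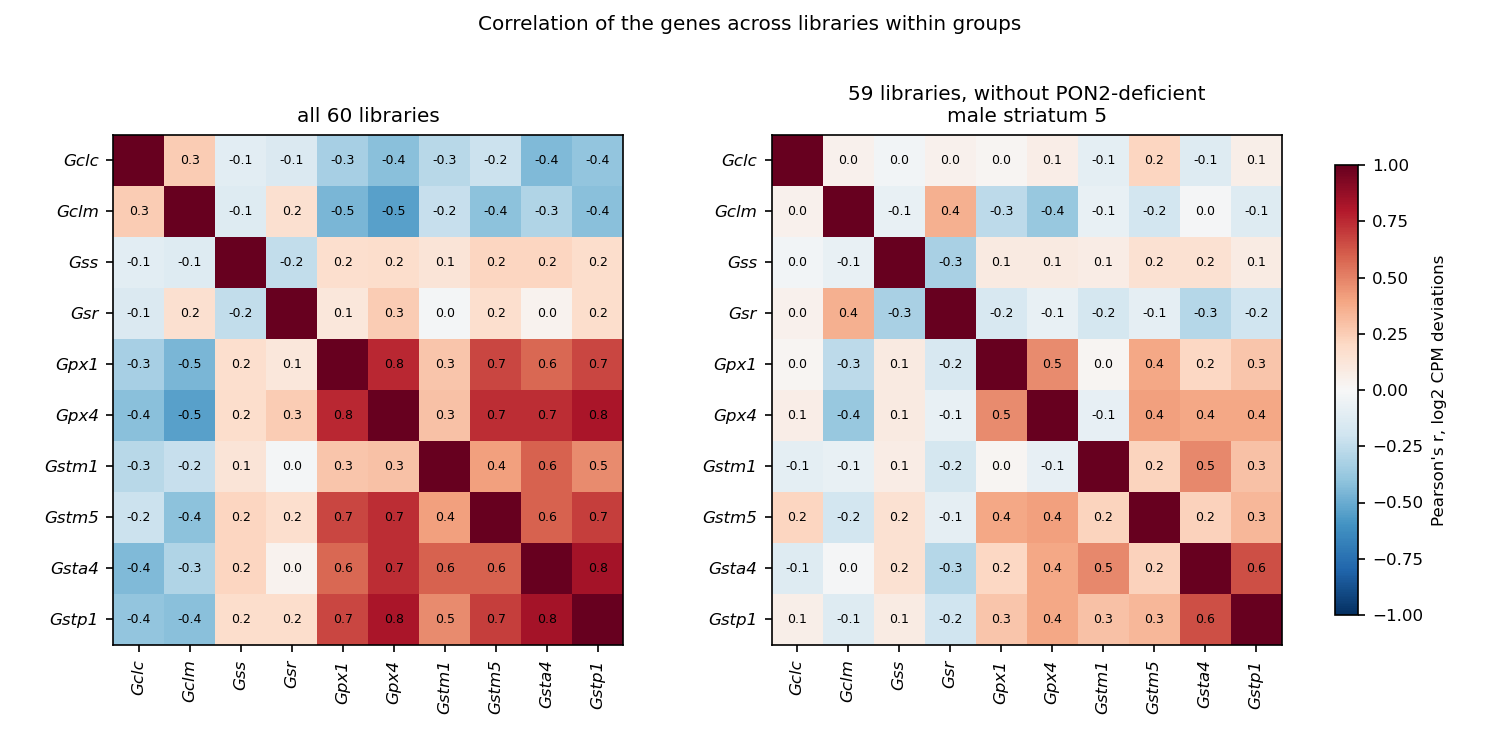
Pearson's r between the within-group deviations of each pair of genes, over all 60 libraries (left) and without the fifth PON2-deficient male striatum (right), printed to 1 decimal and coloured from -1 to 1. Gsta4 and Gstp1 stay the closest pair (0.83 and 0.64), and most other values shrink on the right.

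Among named genes averaging 1 CPM or more, those whose deviations were most like those of each member are given as a description, over 60 libraries, with r without the library that stood apart after each. Gpx4 was most like Atp5o, a subunit of ATP synthase (r = 0.96, then 0.82), and Gstp1 most like the ribosomal protein gene Rpl8 (0.92, then 0.74). Gpx1 was nearest to Hras (0.88, then 0.79), Gsta4 to Psme1 (0.86, then 0.74) and Gstm5 to Mrpl33 (0.80, then 0.60). Gstm1 was nearest to Fxyd1 (0.76, then 0.71), with 0.76 within cerebellum. Gclm was nearest to Imp4 (0.72, then 0.64), and Gclc (Zfp955b, 0.60, then 0.49), Gsr (Oaf, 0.56, then 0.52) and Gss (Bin1, 0.49, then 0.52) had weaker neighbours.

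The wider pathway gave the same count between genotypes. Of 76 other genes in 7 lists, 69 were in the table and 67 were tested in each region. None passed the test of genotype in cortex, striatum or cerebellum, and their median log2 changes were -0.04, -0.00025 and -0.02. The genes closest to the threshold were named by their p. In cortex they were the theta-class transferase Gstt2 (-0.32, SE 0.117, edgeR adjusted p = 0.285) and the quinone reductase Nqo1 (-0.26, SE 0.103, adjusted p = 0.326). In striatum they were the aminopeptidase Anpep (0.86, SE 0.276, edgeR adjusted p = 0.753) and Cbs, which makes the cysteine precursor cystathionine (0.22, SE 0.0797, adjusted p = 0.844). Without the library that stood apart these were 0.79 (adjusted p = 0.459) and 0.20 (adjusted p = 0.503), none of the 67 genes passed, and Adh5 had the smallest p (-0.17, adjusted p = 0.366). In cerebellum they were the dehydrogenase Adh5 (-0.08, SE 0.0263, edgeR adjusted p = 0.214) and Slc7a11, the cystine transporter (-0.15, SE 0.0539, adjusted p = 0.272). All 10 choroid plexus markers had log2 changes below 0 in cortex and in cerebellum, with median log2 changes of -0.88 and -0.34 and none past the test, and their part in these values was not tested.

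Between regions the share of list genes that passed was below that of all genes in 2 comparisons and near it in the other. Of the 69 genes 46 passed between cerebellum and cortex (23 higher, 23 lower), 66.7% against 79.6% of all genes. Between striatum and cortex 39 passed (21 higher, 18 lower), 56.5% against 57%, and between cerebellum and striatum 50 (26 higher, 24 lower), 72.5% against 79.8%. Without the library that stood apart these were 49, 42 and 53, against 16619, 12278 and 16523 of 20417 genes. The counts of each list between cerebellum and cortex stand against 40.1% of all genes higher and 39.5% lower, and nothing particular to a list is read from them. Of the 15 genes for cysteine supply and glutathione breakdown, 3 were higher and 6 lower in cerebellum than in cortex. The import genes Slc1a1, a glutamate and cysteine transporter (log2 -1.48, SE 0.028), and Slc7a11 (-1.14, SE 0.0561) were lower there, as was Cth, the last enzyme of cysteine synthesis from methionine (-0.90, SE 0.109). The dipeptidase Dpep1 was higher (2.80, SE 0.547), but at very low levels. It averaged 0.27 ± 0.21 CPM in cerebellum and 0.03 ± 0.06 CPM in cortex (SD, n = 20 each), with libraries at 0 in both. Slc1a1 had a mean of 102 ± 4.20 CPM in cortex and 36.5 ± 2.32 CPM in cerebellum (SD, n = 20 each), while the ligase modifier and synthetase above were higher there. Of the 11 NADPH genes 3 were higher and 3 lower, led by G6pdx of the pentose phosphate pathway (1.09, SE 0.0495) and the malic enzyme Me3 (-0.70, SE 0.0373).

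The NRF2 list had 4 of 7 higher and 2 lower in cerebellum than in cortex. Nqo1 stood at 1.25 (SE 0.0701) and Nfe2l2, the gene of NRF2, at 0.36 (SE 0.0447). The repressor Bach1 was higher (0.52, SE 0.0483) and Keap1, which marks NRF2 for breakdown, was lower (-0.41, SE 0.0227). Of 17 other transferases 6 were higher and 6 lower, with Hpgds (-1.81, SE 0.0734) and Gstm6 (-1.42, SE 0.0875) on 1 side and the microsomal Mgst1 (1.12, SE 0.0856) and Gstt2 (1.07, SE 0.0907) on the other. Of 5 other peroxidases 1 was higher and 3 lower, among them Gpx6, at 5.23 ± 1.54 CPM in striatum (SD, n = 20) against 0.71 ± 1.92 in cortex and 0.04 ± 0.04 in cerebellum. The cortical mean rests on 1 library, the second wild-type male, at 8.84 CPM, and the other 19 averaged 0.28 ± 0.14 CPM. Glutaredoxins and other users of glutathione had 5 of 9 higher and 2 lower, with Glo1 at 0.55 (SE 0.0235) and Glrx2 at -0.60 (SE 0.044). Of 5 export genes Abcc1 was higher (0.30, SE 0.0589) and Abcc3 lower (-2.59, SE 0.202).

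Striatum differed from cortex by other genes of the lists. Gpx6 (3.60, SE 0.289, and 4.20, SE 0.186, without that cortical library), Mgst1 (0.70, SE 0.0860) and the thioredoxin reductase Txnrd1 (0.45, SE 0.0301) were higher in striatum, and Gstm2 (-0.80, SE 0.139) and Glrx (-0.54, SE 0.0444) were lower. Slc7a11 was lower there too (-0.47, SE 0.0553). Without the library that stood apart these 6 values kept their direction and passed, at 3.57, 0.71, 0.46, -0.84, -0.55 and -0.45 in the same order.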

How the data were processed

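Bulk RNA-seq of whole tissue gave 60 libraries (30 to 50 mg of tissue, 150 nt paired reads, per the labels' protocols). The authors deposited 3 tables: estimated counts per gene, log2 CPM, and a precision weight (score) for each value. Per the submitters' processing notes the tools were Salmon, edgeR and limma, without versions; build and annotation: not given in the sources used here. As deposited, log2 CPM equalled log2 of the counts plus 0.5 over TMM-scaled library size plus 1, within 5.33e-14. Of the 20423 gene IDs, 20403 (99.9%) matched GENCODE M21, which gave symbols, positions and lengths.

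Estimated counts were rounded to whole numbers and tested with edgeR 4.0.16 (quasi-likelihood F test, TMM, filterByExpr) in R 4.3.3, with Benjamini-Hochberg adjustment over all genes kept: 18972 in cortex, 18962 in striatum, 18710 in cerebellum and 20387 in the fit of 60 libraries. Fits used 1 mean per group. Alternatives were DESeq2 1.42.0, RLE scaling, no filter, limma 3.58.1 on the deposited log2 values and weights, a replicate block, the length slope or choroid plexus markers in the model, and libraries left out. Per-library totals of 26091911 to 28125224 counts set the precision. The test was checked on simulated counts. The highest correlation between 2 libraries was 0.989. The members were set by symbol, the member with the smallest p was named in comparisons of sex, and other pathway genes by the largest change among those called, or else the smallest p. Members and lists were chosen with earlier results of these data known. CPM uses a prior count of 2 only for log2 values.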

Additional observations from a re-analysis of the deposited data

Results flagged for a closer look

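In 120 groups of 5 libraries (10 genes in 12 groups), the highest or lowest library lay beyond Dixon's critical ratio of 0.71 in 18, where chance gives about 6. The 10 genes share libraries, so these flags are not independent, and the share over all genes was not counted. The fifth PON2-deficient male striatum was far above its group for Gpx4 (599.8 CPM), Gstp1 (396.4 CPM), Gstm5 (161.2 CPM), Gpx1 (124.6 CPM), Gsta4 (42.1 CPM) and Gsr (32.9 CPM). The fourth wild-type male cerebellum was above its group for Gpx4 (286 CPM), Gstp1 (147 CPM) and Gsta4 (39.5 CPM). Among the other wild-type libraries, a male striatum was high for Gpx1 (95.6 CPM) and another for Gss (14.1 CPM), and a female striatum for Gsta4 (28.5 CPM). Female cerebellar libraries were high for Gclc (55.6 CPM) and Gstm1 (231.7 CPM), both in replicate 3, for Gsr (32.3 CPM) and for Gsta4 (33.6 CPM). In cortex a wild-type female was low for Gstm5 (104 CPM) and a wild-type male for Gsta4 (27.1 CPM).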

How the results depend on the processing

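The count of members past the threshold was 0 for genotype, genotype within a sex, genotype by sex, sex and genotype by region under every alternative that was run. Between regions it was 6, 9 and 10 (striatum over cortex, cerebellum over cortex, cerebellum over striatum). With limma it was 8, 10 and 10, and with libraries left out 6 to 8, 8 to 10 and 9 to 10. Counts over all genes between regions are not given for limma or the replicate block, so no gain among the members is read from these. With libraries left out 10674 to 12278, 15596 to 16619 and 15653 to 16523 of all genes passed. With the replicate block it was 0 for the genotype comparisons and 6, 9 and 10 for the regions. Equal numbers gave correlations of -0.0776 to 0.412 over 30 genotype pairs, 3 of them over 0.1, and of -0.0718 to 0.168 over 60 pairs of regions, 12 of them over 0.1. Each library was also compared with the 5 libraries of the other genotype in its region and sex. Of 60 libraries 19 correlated best with their own number there, where chance gives 12. Pairs of regions were not counted in this way. The block changed no call of a member; sex was not refitted with it. It moved the genes called in cortex from 6 to 30 and in striatum from 2 to 1.

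Signs of small genotype changes turned under some fits, and no value involved was called. With the length slope these were Gpx1 (0.0135), Gstm1 (0.0608) and Gstm5 (0.00442) in cortex, Gstm5 (-0.0145) in striatum and Gclm (-0.0189) in cerebellum, and with choroid plexus markers Gclm in cortex (-0.0316) and Gsr in cerebellum (0.0355). With limma they were Gclc (0.00711), Gpx4 (-0.0013), Gstm5 (-0.0688) and Gsta4 (-0.0563) in striatum and Gclm (-0.000696) in cerebellum, and with the replicate block Gstm5 in striatum (-0.00148) and cerebellum (-0.00172). Between striatum and cortex Gpx4 was -0.0924 (adjusted p = 0.00729) and Gstm5 -0.0217 with limma, and Gpx4 -0.01235 with the block. The cause was not tested.

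With single libraries left out, striatal genotype changes ran from -0.0327 to 0.00886 for Gclc, -0.0405 to 0.0129 for Gss, -0.0955 to 0.0282 for Gpx1, -0.00581 to 0.231 for Gpx4, -0.0595 to 0.0337 for Gstm5, -0.0742 to 0.107 for Gsta4 and -0.014 to 0.163 for Gstp1. Those that turned elsewhere were Gclm in cortex (-0.0142 to 0.0345) and cerebellum (-0.0168 to 0.0731), Gsr (-0.0338 to 0.0141) and Gstm5 (-0.0281 to 0.0212) in cerebellum, and, between striatum and cortex, Gss (-0.0272 to 0.00405), Gpx4 (-0.101 to 0.0407) and Gstm5 (-0.0402 to 0.0416).

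Counts over all genes moved more. DESeq2 called 232, 6 and 242 genes for genotype in cortex, striatum and cerebellum where edgeR called 6, 2 and 6, and 388, 7 and 182 in males where edgeR called 28, 1 and 3. In females it called 23, 2 and 8 against 1 each, by sex 52, 6 and 1 against 0, for sex 69, 55 and 44 against 17, 20 and 22, and for genotype by region 12 against 3. Limma gave 18 for genotype and 12 in males in cerebellum, 2 in females and in males and 57 for sex in striatum, and 5 for genotype by region. With the length slope in the model 75 genes were called for genotype in cortex, and with choroid plexus markers 2. Leaving out single libraries gave 1 to 26, 2 to 3 and 1 to 49 for genotype in the 3 regions, with 26 without the fifth PON2-deficient female cortex and 49 without the third wild-type male cerebellum. In males the range was 1 to 150 in cortex (150 without the fourth wild-type library) and 2 to 41 in cerebellum.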
